A study of Homo sapiens with 8 samples.

Results

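Expression of 10 genes for inflammatory and colony-stimulating cytokines was examined in xenograft tumours: IL6, LIF, IL11, IL1A, IL1B, IL18, IL32, TNF, CSF1 and CSF2. The genes were chosen by symbol from the 59050 symbols counted in each library, by a rule that uses no measured value, although earlier results of these data were known when the group was proposed. Tumours were grown from H2122, an established human lung cancer line, and 4 came from parental (WT) cells and 4 from SMARCA4 knockout (SMARCA4 KO) cells. Every tumour had received vehicle, so no group carries a drug treatment. The series title relates the comparison to immune control of SMARCA4-mutant tumours through STING. The host, the age of the animals, how SMARCA4 was disrupted and whether the knockout cells were 1 clone are not given in the sources used here, and nothing says that the replicates came from separate animals. P-values therefore measure the spread between these 8 samples.

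SMARCA4 is an ATPase that moves nucleosomes as part of SWI/SNF complexes. The cytokines studied are secreted or released proteins through which damaged or activated cells signal to neighbours and to leukocytes. IL-6, LIF and IL-11 each bind a different receptor chain and also the shared signalling chain encoded by IL6ST, which activates JAK kinases and STAT3. IL-1α, IL-1β and IL-18 belong to the interleukin-1 family, whose receptors signal through MYD88 and IRAK kinases to NF-kB, and TNF reaches NF-kB through its own receptors. CSF1 and CSF2 support macrophages and other myeloid cells. Tumour cells can transcribe many of these genes themselves.

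Libraries held 19785922 to 23191698 gene counts, with no separation of the groups by depth. SMARCA4 was at 198 to 235 CPM (gene counts scaled to a common library size by TMM) in parental and 22.3 to 31.1 CPM in knockout tumours, so each library lay on the side of its label. All 10 epithelial markers examined were detected in both groups, with summed levels of 8711 to 9891 CPM in parental and 7322 to 8733 CPM in knockout tumours. Of 10 lung lineage markers, NKX2-1, SFTPA1 and SFTPC were at 0 counts throughout, which leaves room for up to 3 counts in a library. Reads were counted for leukocyte marker genes in every tumour. Whether they came from leukocytes, from tumour cells or from host transcripts counted as human was not tested. The summed level of 13 leukocyte markers other than S100A8 and S100A9 was 17.2, 93.2, 79.7 and 10.5 CPM across the parental replicates 1 to 4 and 20.8 to 41.0 CPM in knockout tumours. Ranges of the summed fibroblast markers (181.6 to 612.5 and 345.8 to 607.6 CPM) and endothelial markers (7.61 to 18.8 and 9.67 to 15.8 CPM) overlapped between parental and knockout tumours. COL1A1 made up most of the fibroblast sum, at 174 to 572 CPM in parental and 317 to 565 CPM in knockout tumours. Within these lists LUM rose among 6 fibroblast markers tested (log2 fold change 5.00), and VWF fell among 2 endothelial markers tested (-2.37). LUM passed the filter on low counts only through the knockout tumours, and VWF only through the parental tumours. Of the epithelial markers 5 of 10 were lower and 0 higher, and of 5 lung lineage markers tested 1 was higher and 2 lower. Among all genes tested, 13.0% were higher and 14.1% lower.

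Promoter sequence is shown for the changed cytokine genes that could be matched, because these genes moved in different directions. RefSeq windows (GRCh38.p14) were matched for 7 of the 10 genes, all but LIF, IL18 and CSF1. The 250 bases before the transcription start are printed 5′ to 3′ on the gene's strand, with motif matches in capitals. Motifs searched on both strands were 1 NF-kB pattern, AP-1 (TGANTCA), C/EBP (TTNCNNAA) and STAT (TTCNNNGAA). The NF-kB pattern was 3 G, any 2 bases, 3 T and 2 C, in that order. Other forms of the NF-kB site were not searched, so the NF-kB matches and share given here cover this pattern only. The IL6 window is chr7:22726950-22727199 on the plus strand, the IL1A window chr2:112784494-112784743 on the minus strand and the IL1B window chr2:112836780-112837029 on the minus strand.
IL6: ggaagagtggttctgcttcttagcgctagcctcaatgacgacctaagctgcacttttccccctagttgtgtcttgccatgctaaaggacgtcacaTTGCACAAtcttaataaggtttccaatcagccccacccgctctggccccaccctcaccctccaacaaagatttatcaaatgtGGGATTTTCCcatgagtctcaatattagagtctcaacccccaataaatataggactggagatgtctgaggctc
IL1A: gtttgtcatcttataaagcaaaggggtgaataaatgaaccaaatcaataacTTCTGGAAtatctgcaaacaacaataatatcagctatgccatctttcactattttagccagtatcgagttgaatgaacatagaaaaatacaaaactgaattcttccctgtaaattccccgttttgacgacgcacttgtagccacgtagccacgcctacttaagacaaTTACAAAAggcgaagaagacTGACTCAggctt
IL1B: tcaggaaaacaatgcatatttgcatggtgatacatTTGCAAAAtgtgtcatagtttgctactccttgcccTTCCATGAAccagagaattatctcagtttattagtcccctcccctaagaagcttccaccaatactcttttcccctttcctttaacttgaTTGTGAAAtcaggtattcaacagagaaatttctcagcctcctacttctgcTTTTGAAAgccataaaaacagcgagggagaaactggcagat
The IL6 window held 1 NF-kB match, GGGATTTTCC, which began 73 bases before the start, and 1 C/EBP match. The IL1A window shown held 1 AP-1 match, TGACTCA, beginning 12 bases before the start, and 2 C/EBP matches. A second RefSeq start of IL1A gives the window chr2:112784401-112784650, which held 2 AP-1 matches and 1 C/EBP match. The IL1B window held 3 C/EBP matches and 1 STAT match, TTCCATGAA. Of the motifs searched, C/EBP was the only one matched in more than 1 of the 3 windows printed. Among 35116 windows of the same length the motifs occurred in 1.73% (NF-kB), 6.57% (AP-1), 33.2% (C/EBP) and 6.57% (STAT). A match describes letters only and says nothing of whether a factor was bound.

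Of the 10 cytokine genes, 9 had enough counts to be tested and 5 changed between the groups. IL6, LIF, IL1B and IL18 rose in knockout tumours and IL1A fell. The remaining 4 tested genes, IL11, IL32, TNF and CSF1, did not pass the threshold (adjusted p under 0.05 by edgeR's quasi-likelihood test over all genes tested), and CSF2 had too few counts to be tested. Among all 16219 genes tested, 27.0% passed, 13.0% as higher and 14.1% as lower. The median log2 fold change of the 9 cytokine genes was 0.47, against 0.0035 over all genes tested. For the 5 changed genes the 4 knockout values lay entirely on one side of the 4 parental values, as they did for 29.3% of all genes tested. In bulk tumours, fewer cells that transcribe a gene and less RNA per cell cannot be told apart.

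**Figure D1:**
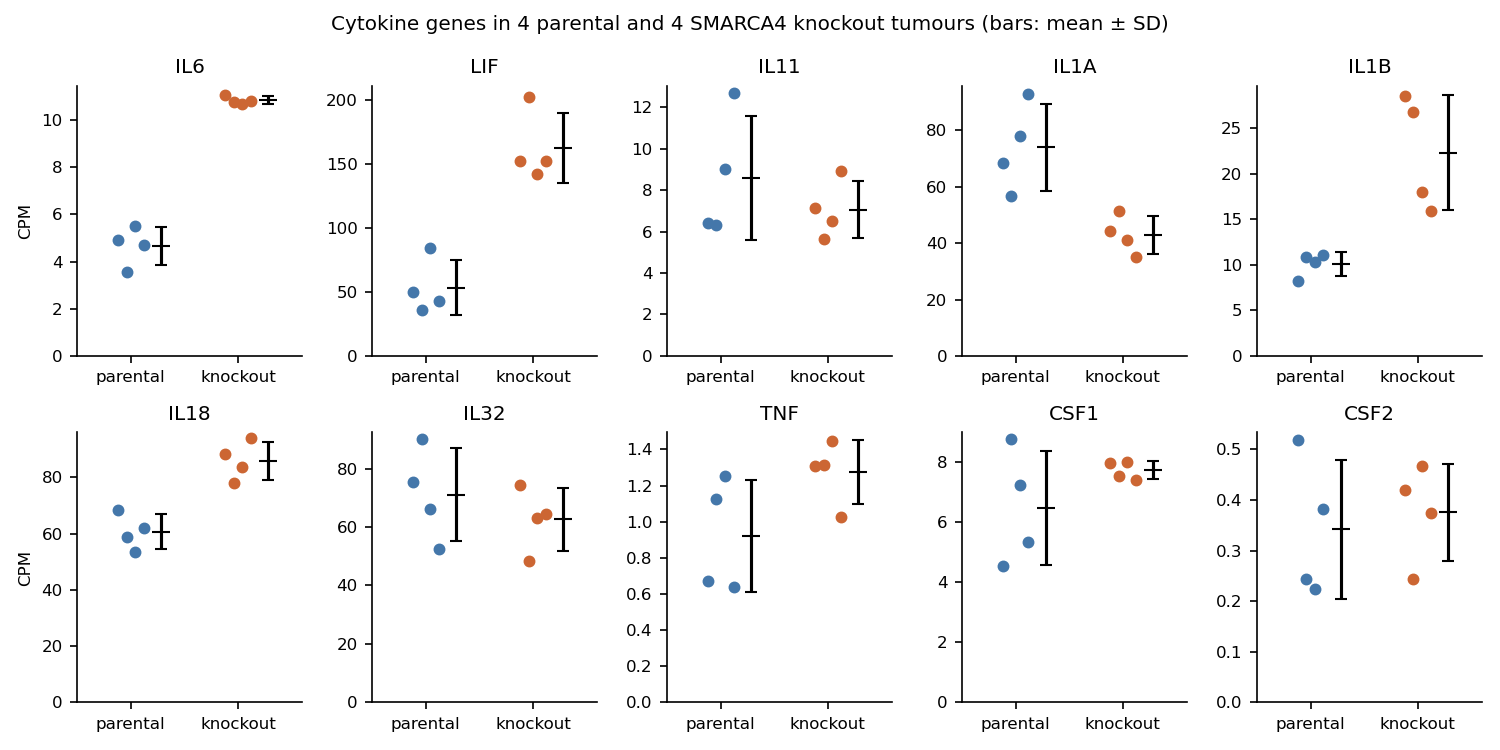
CPM of each cytokine gene (vertical axes, starting at 0) in every tumour, with 4 parental tumours in blue, 4 knockout tumours in orange, and black bars for the mean ± SD. IL6, LIF, IL1B and IL18 are higher in every knockout tumour than in any parental tumour, IL1A is lower in every knockout tumour, and the groups overlap for the other 5 genes.

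The interleukin-6 family was taken first. IL6 (ENSG00000136244, chromosome 7, 22725884 to 22732002, plus strand, GENCODE 29 on GRCh38) encodes the founding member, which drives the acute-phase response. IL6 was at 4.92, 3.56, 5.49 and 4.72 CPM in parental tumours (replicates 1 to 4) and at 11.1, 10.8, 10.7 and 10.8 CPM in knockout tumours (replicates 1 to 4). The knockout tumours lay within a narrow band above all parental tumours. The means were 4.67 ± 0.809 and 10.8 ± 0.165 CPM (SD, n = 4 each), which is 1.21 on the log2 scale (edgeR, SE 0.145, adjusted p = 0.000114), or 2.32-fold. The exact two-sided permutation p was 0.0286, the smallest that 4 against 4 tumours allow, and it was the same for each of the 5 changed genes. Parental replicate 2 had the lowest IL6 and the highest summed fibroblast markers of all tumours (612 CPM, with COL1A1 alone at 572 CPM). Knockout replicates 1 and 3 had sums of 592 and 608 CPM, with IL6 at 11.1 and 10.7 CPM. These sums mostly follow COL1A1 and do not measure fibroblast content. DCN, PDGFRA, PDGFRB and THY1 had 9, 6, 27 and 0 counts over the parental libraries. Over the knockout libraries they had 24, 1, 15 and 1 counts. The part of fibroblasts in the IL6 values was not tested.

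LIF (ENSG00000128342, chromosome 22, 30240447 to 30246851, minus strand) encodes leukemia inhibitory factor, known for maintaining stem cells and for STAT3 signalling in tumours. LIF was at 50.2, 35.9, 84.4 and 43.2 CPM in parental tumours (replicates 1 to 4) and at 153, 203, 142 and 152 CPM in knockout tumours (replicates 1 to 4). Parental replicate 3 and knockout replicate 2 were the highest of their groups, and the groups did not overlap. The edgeR log2 fold change was 1.60 (SE 0.232, adjusted p = 0.000406), or 3.04-fold, from 53.4 ± 21.5 to 162 ± 27.1 CPM (SD, n = 4 each). This was the largest rise among the 9 genes tested. The antisense gene AC004264.1, whose exons overlap those of LIF, had 7 to 20 counts in parental and 25 to 37 in knockout libraries, against 735 to 4154 counts for LIF. Whether counting used strand is not given in the sources used here, so how reads in the overlap were assigned is not known. The same holds for IL6, with 73 to 237 counts. Its exons overlap those of AC073072.1 (1 to 6 counts) and STEAP1B (0 to 6 counts), both on the other strand.

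IL11 (ENSG00000095752, chromosome 19, 55364389 to 55370463, minus strand) encodes a family member linked to stromal and fibrotic responses. IL11 was at 6.42, 6.30, 9.02 and 12.7 CPM in parental tumours (replicates 1 to 4) and at 7.15, 5.66, 6.49 and 8.92 CPM in knockout tumours (replicates 1 to 4). The groups overlapped, and parental replicate 4 was the highest of all tumours. The log2 fold change was -0.29 (95% interval -0.80 to 0.22, edgeR adjusted p = 0.394). This interval does not reach the rises of IL6 and LIF.

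The receptor side of this family did not move as a block. IL6R, the receptor chain for IL-6, rose from 10.3 ± 1.51 to 22.9 ± 2.16 CPM (SD, n = 4 each), which is 1.15 on the log2 scale (edgeR, SE 0.126, adjusted p = 5.67e-05). IL6R lay at 8.89 to 12.3 CPM in parental and 21.3 to 26.1 CPM in knockout tumours, with no overlap. LIFR, the chain that binds LIF and some related ligands, fell instead, from 14.5 ± 2.38 to 9.23 ± 1.61 CPM (log2 fold change -0.65, SE 0.162, edgeR adjusted p = 0.0116). OSMR, which pairs with the shared chain to bind oncostatin M, rose from 245 ± 51.9 to 420 ± 88.7 CPM (0.78, SE 0.178, adjusted p = 0.00738). The shared chain IL6ST was at 105 ± 4.88 and 103 ± 24.8 CPM, with a log2 fold change of -0.03 (95% interval -0.36 to 0.30, edgeR adjusted p = 0.909). Its sign turned with upper-quartile scaling (0.0045) and without knockout replicate 4 (0.12). Over all receptor chains listed for these cytokines, 15 of 18 were tested, 5 were higher and 2 lower, and the median was 0.40 on the log2 scale. For all genes tested the shares were 13.0% higher and 14.1% lower.

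Genes that respond to this family were read next. Of 20 STAT3 and acute-phase response genes, 17 were tested, 7 were higher and 3 lower, with a median log2 fold change of 0.13. The count was 5 in all without knockout replicate 3, against 10 with every tumour. Of all genes tested, 27.0% passed. OSMR is also counted among the receptor chains, and SOCS3 among the signalling genes below the receptors. FGA, a fibrinogen chain, rose from 76.7 ± 13.6 to 409 ± 82.7 CPM (log2 fold change 2.41, SE 0.168, edgeR adjusted p = 2.98e-06). FGB, another fibrinogen chain, rose by 0.91 on the log2 scale (adjusted p = 0.00947), and LBP, which binds lipopolysaccharide, by 1.67 (adjusted p = 0.00242). FGG, the remaining fibrinogen chain, was at 150 ± 78.4 and 127 ± 45.1 CPM and did not pass (-0.23, 95% interval -1.08 to 0.61, edgeR adjusted p = 0.701). The lower genes were SAA1 (-2.61), SAA2 (-2.41) and CEBPD (-0.46), all named after their values were seen. The SAA1 value was -1.79 without parental replicate 3, its highest library, and -3.54 without knockout replicate 2. The SAA2 call was lost without parental replicate 3 or knockout replicates 1, 3 or 4 (adjusted p up to 0.0574). The CEBPD call was lost with upper-quartile scaling and without parental replicates 1 or 3 or any single knockout tumour (adjusted p up to 0.104). Among the higher genes, the call was lost in 11 of 15 other fits for PIM1, 4 for IL4R and 2 for SOCS3. FGA, FGB, LBP and OSMR kept theirs in all 15. SAA1 and SAA2 are near-identical acute-phase genes whose reads may be split, so their separate values are uncertain. Members of the list thus moved in both directions.

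Of 20 signalling genes below the receptors, all were tested, 3 were higher and 2 lower, with a median of 0.07. The share that passed over all genes tested was 27.0%, and this list stood near it. SOCS3, the feedback inhibitor of IL-6 signalling, was at 43.3 ± 7.70 and 59.1 ± 5.43 CPM (SD, n = 4 each) in the parental and knockout groups, which is 0.45 on the log2 scale (edgeR, SE 0.126, adjusted p = 0.0207). The SOCS3 call was lost without knockout replicate 2 (adjusted p = 0.0589) and without knockout replicate 3 (0.0650), and the number of changed genes in the list was then 3. IRAK1, a kinase below the interleukin-1 receptors, fell by 0.46 on the log2 scale (SE 0.0801, edgeR adjusted p = 0.00134). TAB2, an adaptor of the TAK1 kinase, fell by 0.36 (adjusted p = 0.0106), and TRAF2, an adaptor of TNF receptors, rose by 0.41 (adjusted p = 0.00808).

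**Figure D2:**
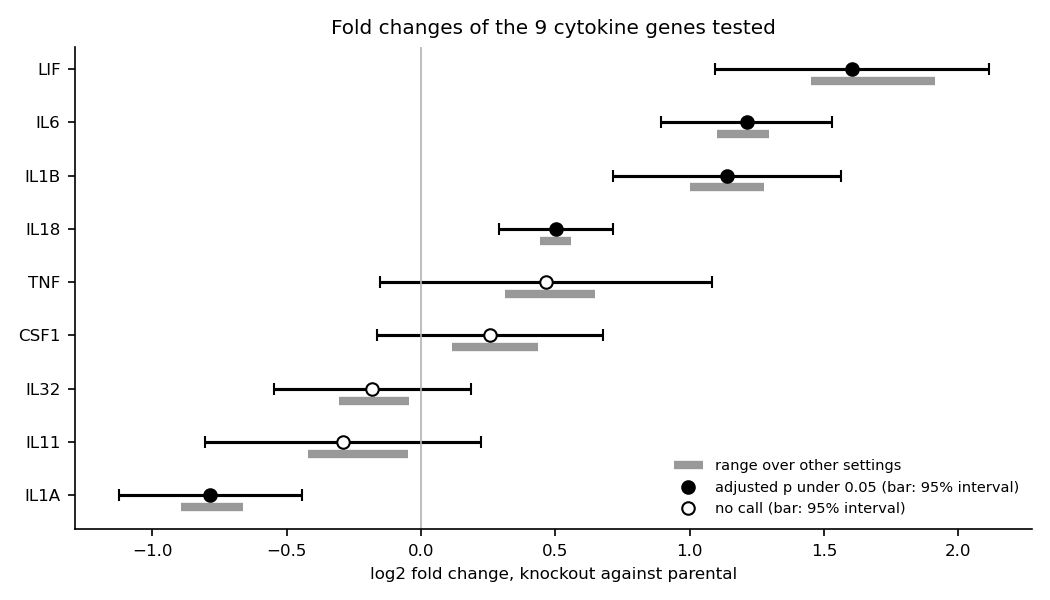
Log2 fold change of the 9 tested cytokine genes, knockout against parental (horizontal axis), with 95% intervals, filled points for adjusted p under 0.05 and grey bars for the range over the other settings run. The 5 filled points are LIF, IL6, IL1B and IL18 above 0 and IL1A below 0, and no grey bar of any gene crosses 0.

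The interleukin-1 agonists moved in opposite directions. IL1A and IL1B are neighbours on chromosome 2 (112773915 to 112784590 and 112829751 to 112836903, both on the minus strand; ENSG00000115008 and ENSG00000125538) and their products bind the same receptor. IL-1α is active as made and acts as an alarm signal when cells are damaged, while IL-1β must be cleaved, usually by caspase-1. IL1A was at 68.4, 56.6, 77.8 and 92.8 CPM in parental tumours (replicates 1 to 4) and at 44.3, 51.4, 40.9 and 35.1 CPM in knockout tumours (replicates 1 to 4). Every knockout tumour was below every parental tumour. The edgeR log2 fold change was -0.78 (SE 0.155, adjusted p = 0.00317), from 73.9 ± 15.3 to 43.0 ± 6.82 CPM (SD, n = 4 each), which left 58.1% of the parental level.

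IL1B was at 8.18, 10.9, 10.3 and 11.1 CPM in parental tumours (replicates 1 to 4) and at 28.6, 26.8, 18.1 and 15.9 CPM in knockout tumours (replicates 1 to 4). The knockout tumours fell into a higher pair (replicates 1 and 2) and a lower pair, and all 4 were above the parental tumours. The edgeR log2 fold change was 1.14 (SE 0.193, adjusted p = 0.00121), or 2.20-fold, from 10.1 ± 1.34 to 22.3 ± 6.31 CPM (SD, n = 4 each). Myeloid cells also make IL-1β. S100A8 and S100A9 are made by myeloid cells and by stressed epithelia. With them the leukocyte markers summed to 835 to 1324 CPM in parental and 1987 to 3274 CPM in knockout tumours. These 2 genes were set apart after their values were seen, as the 2 leukocyte markers that passed the threshold. The other 13 summed to 10.5 to 93.2 CPM in parental and 20.8 to 41.0 CPM in knockout tumours. Parental replicates 2 and 3, highest in the sum of the other 13, had IL1B at 10.9 and 10.3 CPM, inside the span of the other parental tumours. The part of leukocytes in the IL1B difference was not tested.

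A ratio of 2 genes within a library does not depend on how libraries are scaled. The IL1B to IL1A count ratio was 0.120, 0.192, 0.132 and 0.120 for parental replicates 1 to 4, against 0.645, 0.521, 0.441 and 0.452 for knockout replicates 1 to 4. The mean ratio was 0.141 ± 0.0347 and 0.515 ± 0.0936 (SD, n = 4 each), 3.65 times as high in the knockout group (exact two-sided permutation p = 0.0286, or 0.0714 after Benjamini-Hochberg adjustment over 5 ratios). With 5 ratios, 1 or 2 at the smallest possible p cannot pass 0.05 after adjustment. The ratios were chosen after the values were seen. IL1B was higher and IL1A lower in every knockout tumour, so this ratio had to separate the groups. Its permutation p therefore adds nothing to the results of the single genes.

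Natural inhibitors of the interleukin-1 family were compared beside the agonists. IL1RN encodes the receptor antagonist that occupies the interleukin-1 receptor without signalling. IL1RN fell from 17.2 ± 2.42 to 6.84 ± 0.737 CPM (SD, n = 4 each), which is -1.33 on the log2 scale (edgeR, SE 0.135, adjusted p = 3.48e-05), with ranges of 15.7 to 20.8 and 6.14 to 7.56 CPM. The IL1RN to IL1B count ratio was 1.41 to 2.03 in parental and 0.219 to 0.477 in knockout tumours (exact permutation p = 0.0286, 0.0714 after adjustment). That p too was fixed beforehand, because IL1RN was lower and IL1B higher in every knockout tumour. Antagonist counts thus outnumbered IL1B counts in every parental library and were fewer in every knockout library. These counts were not scaled by gene length. Only the change of the ratio can be read, not which transcript was more abundant. The IL1RN to IL1A ratio overlapped between the groups, at 0.169 to 0.367 and 0.119 to 0.215 (exact permutation p = 0.143, 0.179 after adjustment).

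IL1R1, the signalling receptor, rose from 18.8 ± 2.61 to 38.3 ± 4.73 CPM (SD, n = 4 each; log2 fold change 1.02, SE 0.125, edgeR adjusted p = 0.000129). The decoy receptor IL1R2 had a log2 fold change of 0.34 (95% interval 0.075 to 0.60, edgeR adjusted p = 0.0570). It passed with upper-quartile scaling (adjusted p = 0.0387), with DESeq2 (0.0499) and with a minimum count of 30 (0.0453). IL1RAP, the accessory chain, had 0.40 (0.043 to 0.76, edgeR adjusted p = 0.0930) and passed without knockout replicate 4 (0.54, adjusted p = 0.0116). CASP1, which encodes caspase-1, fell from 9.96 ± 2.0 to 4.0 ± 1.06 CPM (log2 fold change -1.32, SE 0.217, edgeR adjusted p = 0.000986).

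**Figure D3:**
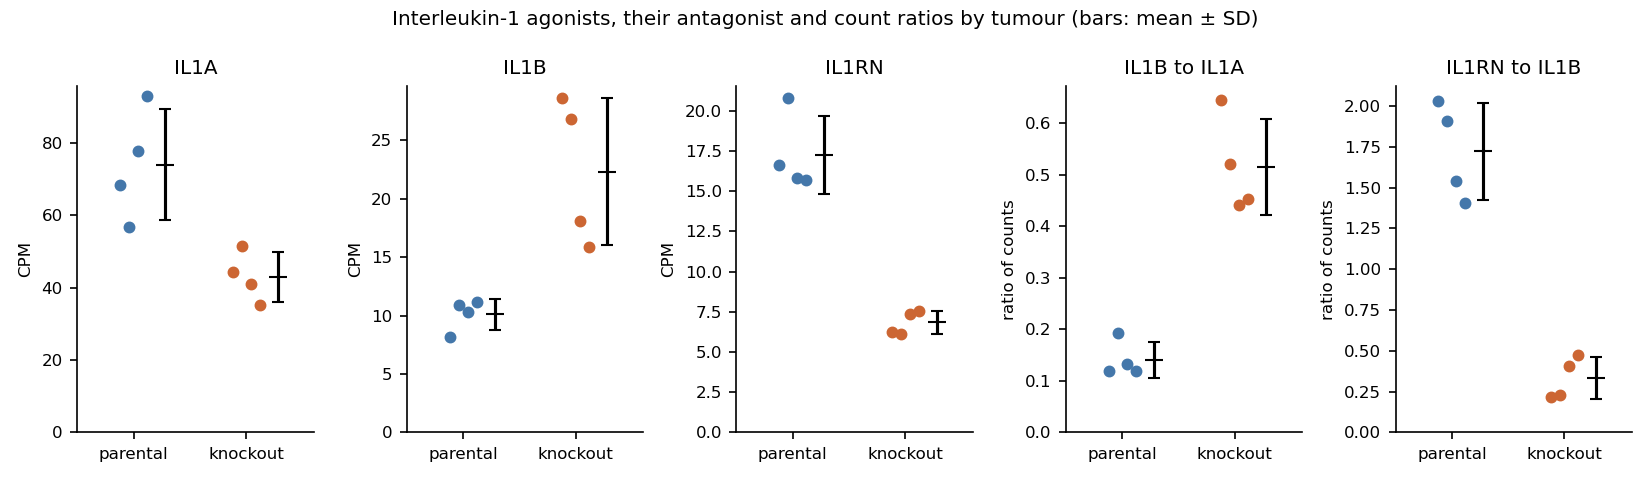
CPM of IL1A, IL1B and IL1RN and the count ratios IL1B to IL1A and IL1RN to IL1B (vertical axes, starting at 0) in 4 parental (blue) and 4 knockout (orange) tumours, with black bars for the mean ± SD. The groups do not overlap in any panel, and the 2 ratios shown move in opposite directions.

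IL18 (ENSG00000150782, chromosome 11, 112143251 to 112164117, minus strand) encodes another caspase-1 substrate of the family, which many epithelia hold as a precursor and which is known for stimulating interferon-gamma release by lymphocytes. IL18 was at 68.4, 58.8, 53.5 and 62.1 CPM in parental tumours (replicates 1 to 4) and at 88.4, 78.0, 83.6 and 94.0 CPM in knockout tumours (replicates 1 to 4). The groups did not overlap, although the change was the smallest of the 5. The edgeR log2 fold change was 0.50 (SE 0.0964, adjusted p = 0.00262), or 1.42-fold, from 60.7 ± 6.24 to 86.0 ± 6.80 CPM (SD, n = 4 each). IL18BP, the secreted protein that traps IL-18, rose as well, from 6.10 ± 1.5 to 10.1 ± 1.22 CPM (log2 fold change 0.73, SE 0.187, edgeR adjusted p = 0.0138). The IL18BP to IL18 count ratio overlapped between the groups, at 0.0651 to 0.130 and 0.101 to 0.128 (exact permutation p = 0.343, also after adjustment).

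IL18R1, the receptor chain for IL-18, rose from 3.15 ± 0.329 to 7.13 ± 1.34 CPM (SD, n = 4 each; log2 fold change 1.18, SE 0.177, edgeR adjusted p = 0.000537). IL18RAP, its accessory chain, had 34 counts over the parental and 45 over the knockout libraries and was not tested. SIGIRR, an inhibitory receptor of the family, fell by 0.51 on the log2 scale (SE 0.106, edgeR adjusted p = 0.00429). IL1RL1, the receptor of the related cytokine IL-33, rose from 0.248 ± 0.0707 to 1.80 ± 0.892 CPM (2.84, SE 0.401, adjusted p = 0.000347), with 21 and 153 counts in the groups. IL1RL1 passed the filter on low counts only through the knockout tumours, so its call gives no separate support for the direction.

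Of 17 related cytokines and natural inhibitors, 8 were tested, 2 were higher (IL18BP and CLCF1) and 2 lower (IL1RN and IL33). By comparison, 13.0% of all genes tested were higher and 14.1% lower. CLCF1, an IL-6 family ligand, had a log2 fold change of 0.36 (edgeR adjusted p = 0.0213), and IL33, a nuclear alarm cytokine, had -0.90 (adjusted p = 0.0491). The CLCF1 call was lost without parental replicate 1 (adjusted p = 0.0584), without knockout replicate 1 (0.0574) and with the replicate number as a block (0.050). The IL33 call was lost without parental replicate 1 (0.0875) or 4 (0.135) and without knockout replicates 1 (0.134), 2 (0.0911), 3 (0.0577) or 4 (0.0944). It was also lost with the block (0.0949), upper-quartile scaling (0.0572) and limma-voom (0.0580). The list then held 2 changed genes without parental replicate 1, without knockout replicate 1 or with the block. The median log2 fold change of the 8 was 0.18.

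**Figure D4:**
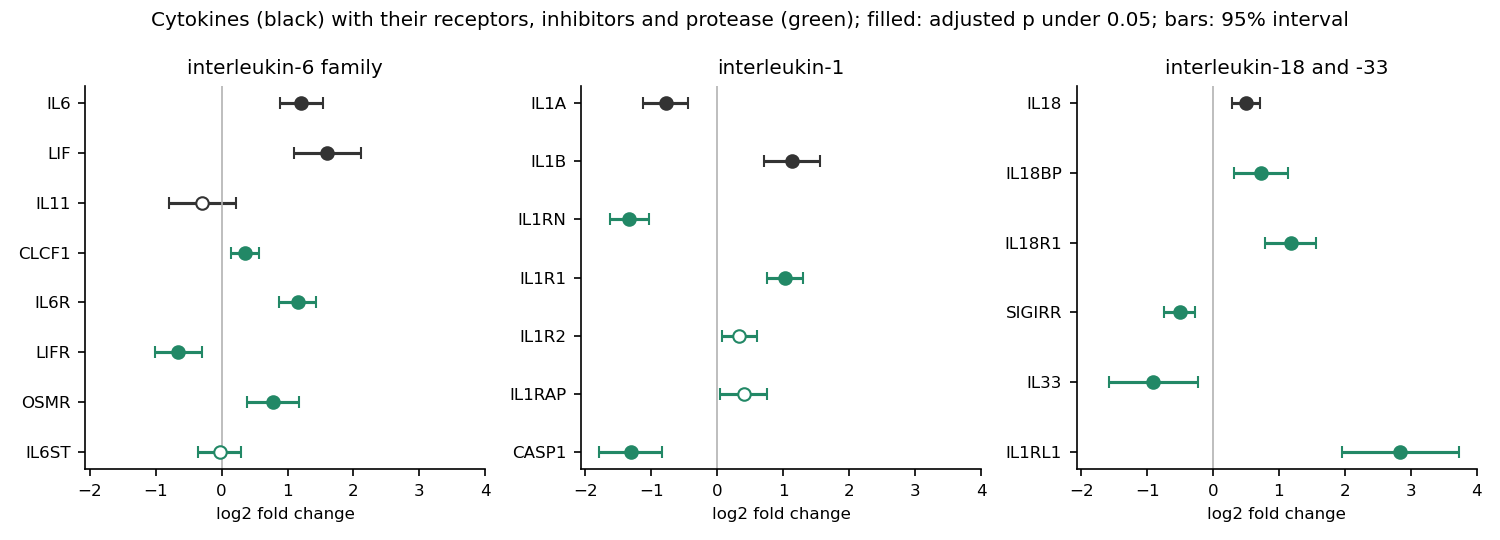
Log2 fold change, knockout against parental (horizontal axis), with 95% intervals for cytokines of the 10 (black) and for related cytokines, receptors, inhibitors and caspase-1 (green) in 3 groups; filled points have adjusted p under 0.05. IL6 and IL6R, and IL18 and IL18R1, lie above 0, LIF and LIFR lie on opposite sides of 0, and IL1B and IL1R1 lie above 0 while IL1RN and CASP1 lie below.

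The 4 tested genes without a call were then read one by one. IL32 (ENSG00000008517, chromosome 16, 3065297 to 3082192, plus strand) encodes a cytokine found in humans that induces other inflammatory cytokines. IL32 was at 75.5, 90.2, 66.1 and 52.4 CPM in parental tumours (replicates 1 to 4) and at 74.5, 48.4, 63.2 and 64.5 CPM in knockout tumours (replicates 1 to 4). The groups overlapped through most of their range. The log2 fold change was -0.18 (95% interval -0.55 to 0.19, edgeR adjusted p = 0.464).

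TNF (ENSG00000232810, chromosome 6, 31575567 to 31578336, plus strand) encodes tumour necrosis factor. It was scarce, with library counts of 13, 23, 28 and 15 (parental, replicates 1 to 4) and of 28, 27, 31 and 22 (knockout, replicates 1 to 4). Means were 0.921 ± 0.311 and 1.27 ± 0.177 CPM (SD, n = 4 each). The log2 fold change of 0.47 had a 95% interval of -0.15 to 1.08 (edgeR adjusted p = 0.255), so at this depth neither no change nor a doubling was outside the interval.

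CSF1 (ENSG00000184371, chromosome 1, 109910242 to 109930992, plus strand) encodes the growth factor of macrophages. CSF1 was at 4.56, 8.79, 7.24 and 5.36 CPM in parental tumours (replicates 1 to 4) and at 7.99, 7.56, 8.03 and 7.42 CPM in knockout tumours (replicates 1 to 4). The knockout tumours lay close together within the wider parental range, and the log2 fold change was 0.26 (95% interval -0.17 to 0.68, edgeR adjusted p = 0.360). Parental replicates 2 and 3, which were the highest parental tumours for both CSF1 and TNF, also had the highest sums of the 13 leukocyte markers other than S100A8 and S100A9 of all tumours (93.2 and 79.7 CPM). With those 2 genes the sums were 835 CPM in parental replicate 2 and 1324 CPM in parental replicate 3, below every knockout tumour. The part of leukocytes in these values was not tested. CSF1R, the receptor of CSF1 and a macrophage marker, was at 2.92 ± 3.02 and 1.05 ± 0.674 CPM.

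CSF2 (ENSG00000164400, chromosome 5, 132073790 to 132076170, plus strand) encodes the granulocyte and macrophage growth factor GM-CSF. Its library counts were 10, 5, 5 and 9 (parental, replicates 1 to 4) and 9, 5, 10 and 8 (knockout, replicates 1 to 4). Pooled over the groups this is 29 and 32 counts, a knockout-to-parental ratio of 1.12 (exact 95% interval 0.654 to 1.91, counting error only; exact permutation p = 0.743 on CPM). No difference was detectable at this depth. CSF3, which encodes the related factor G-CSF and was named after its values were seen, varied from 2.44 to 18.8 CPM in parental and from 0.373 to 4.58 CPM in knockout tumours. Its log2 fold change was -2.21 with an adjusted p of 0.0809 by edgeR.

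Levels were compared between the genes per kilobase of annotated exon. In parental tumours the order from the highest was IL1A (34.8 CPM per kilobase), IL18 (23.1), IL32 (22.1), LIF (13.5), IL1B (3.27), IL11 (3.22), IL6 (2.26), CSF1 (1.20), TNF (0.550) and CSF2 (0.435). The ranges of IL18 and IL32, IL32 and LIF, IL1B and IL11, IL11 and IL6, and TNF and CSF2 overlapped. Ranges leave out that the genes were measured in the same tumours, so overlap does not show that neighbours were alike. In knockout tumours LIF was first (40.9 CPM per kilobase), followed by IL18 (32.7), IL1A (20.2), IL32 (19.5), IL1B (7.21), IL6 (5.24), IL11 (2.64), CSF1 (1.43), TNF (0.760) and CSF2 (0.478). Only IL1A and IL32, and IL1B and IL6, overlapped with their next neighbour there. The mean of LIF thus stood below those of IL1A, IL18 and IL32 in parental tumours, where its range overlapped those of IL18 and IL32, and above all of them in knockout tumours. With the longest transcript as the length, IL32 was first in parental tumours (51.5), and IL18 (50.7) and IL32 (45.4) stood above LIF (40.9) in knockout tumours.

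**Figure D5:**
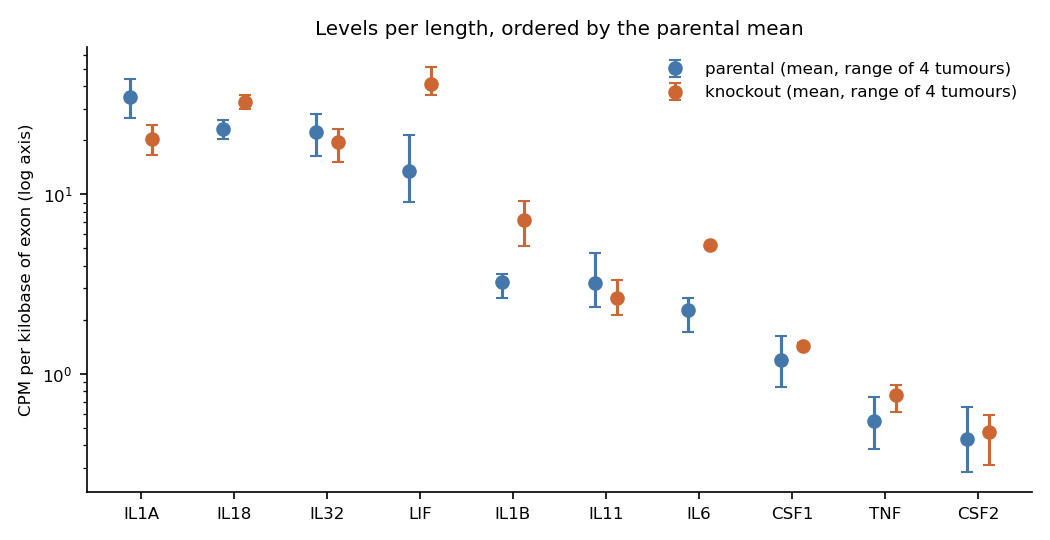
Mean level per kilobase of exon (vertical log axis, CPM per kilobase) of the 10 cytokine genes, ordered by the parental mean, with bars for the range over 4 parental (blue) and 4 knockout (orange) tumours. LIF moves from 13.5 to 40.9, above the 34.8 of IL1A in parental tumours, while TNF and CSF2 stay under 1 in both groups.

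Genes for processing, release and mRNA stability of these cytokines were counted as lists, beside a share of 27.0% that passed among all genes tested. Of 19 genes for processing and release, 14 were tested, 1 was higher and 2 lower, with a median log2 fold change of 0.04. Those lower were CASP1, given above, and CAPN1, a calpain subunit of the protease family that trims the IL-1α precursor, which fell from 338 ± 17.9 to 199 ± 7.67 CPM (SD, n = 4 each; log2 fold change -0.77, edgeR adjusted p = 3.38e-05). The higher one, the neutrophil protease gene PRTN3, had 1 count over the parental libraries, in replicate 4, against 72 over the knockout libraries. The count ratio was 72.8 (exact 95% interval 12.7 to 2915). PRTN3 too passed the filter on low counts only through the knockout tumours, so its call gives no separate support for the direction. The list held 5 changed genes without parental replicate 4 or without knockout replicate 4, and 6 with upper-quartile scaling. PYCARD, NLRP3, NLRC4 and AIM2, sensors and adaptor of the inflammasome, were not tested, with 34, 35, 19 and 7 counts over the parental and 7, 9, 4 and 2 over the knockout libraries. The sensor NLRP1 was tested, with 458 and 446 counts, and had a log2 fold change of -0.02 (95% interval -0.50 to 0.45, edgeR adjusted p = 0.955). NLRP3 counts were 1, 18, 15 and 1 across parental replicates 1 to 4, high in the tumours that were also high in the 13 leukocyte markers other than S100A8 and S100A9. The part of leukocytes in these counts was not tested. All 12 factors that stabilise or degrade cytokine mRNAs were tested, and 1 was higher and 0 lower, with a median of -0.07. That gene, TIAL1, had a log2 fold change of 0.28 (edgeR adjusted p = 0.0255), and its call was lost without parental replicate 3 (0.0658) or knockout replicates 1 (0.0829) or 2 (0.0747) and without a filter on low counts (0.0964). The list held 0 changed genes without knockout replicate 1 or 2 and 2 without parental replicate 2 or 4.

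Genes whose profile over the 8 tumours was most like that of each changed cytokine were found by the smallest root mean square difference of log2 CPM, each gene centred on its own parental mean. Each changed cytokine was compared with 13052 genes, and the smallest differences describe these tumours only. PLXND1 (0.0809), SLC46A3 (0.111) and BICDL1 (0.145) were nearest to IL6. PLIN5 (0.145), LDLRAD1 (0.214) and AL590560.1 (0.276) were nearest to LIF. ARL6 (0.0905), RHOBTB3 (0.128) and B3GNT5 (0.135) were nearest to IL1A, and TLE6 (0.0950), MAMLD1 (0.172) and MMP10 (0.179) to IL1B. MICA (0.0687), JAG2 (0.0732) and DNAH14 (0.0736) were nearest to IL18. None of the 15 genes was one of the 10 cytokines.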

How the data were processed

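RNA sequencing counts of 8 tumours were analysed, 4 parental and 4 SMARCA4 knockout, grouped by title and genotype. The authors deposited 1 file of unnormalised read counts, by gene symbol, for each tumour. TopHat2 2.1.1, HTSeq 0.11.0 and the build hg38 are named in the submitters' processing notes. The annotation, strand setting and any removal of host reads are not given in the sources used here, so host transcripts that resemble human ones may be counted. Each file held 59050 symbols and 5 summary lines, and the latter entered neither the library sizes nor the fits. Between 79.2% and 85.2% of reads were assigned to a gene. All pairs of libraries differed by more than sampling noise (chi-square per degree of freedom at least 8.21).

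Genes were kept by filterByExpr (minimum count 10, minimum total 15), scaled by TMM and tested with edgeR 4.0.16 in R 4.3.3 by the quasi-likelihood F-test, knockout against parental, with Benjamini-Hochberg adjustment over the 16219 genes kept and a threshold of 0.05. Standard errors and 95% intervals come from that fit. Simulated data were used to test the fit. Single values were compared by exact two-sided permutation tests. Count ratios have exact 95% intervals, and a count of 0 was taken to allow 3 counts, both covering counting error only. Union exon lengths and positions come from GENCODE 29. The members, lists and rules were chosen with earlier results of these data known. The text names all 10 cytokines, SMARCA4, the changed genes of each list for the cytokine system with the smallest p (at most 4, or 5 for receptors), receptor chains of changed cytokines and the 3 genes most like each changed cytokine, among genes with average log2 CPM of at least 1. Outside this rule lie the marker genes (LUM, VWF, COL1A1, DCN, PDGFRA, PDGFRB, THY1, S100A8, S100A9, PTPRC, CSF1R and those at 0) and chromosomal neighbours. So do genes overlapping LIF or IL6, inflammasome genes, FGG, PIM1, IL4R and the genes said to be chosen after their values. LUM, VWF, S100A8 and S100A9 were named because they passed the threshold. Other settings were 2 scalings, DESeq2 1.42.0, limma-voom (limma 3.58.1), 2 filters on low counts, the replicate number as a block and leaving out each tumour.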

Additional observations from a re-analysis of the deposited data

How the results depend on the processing

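IL6, LIF, IL1B and IL18 stayed higher and IL1A lower, past the threshold, in all 15 other fits: 7 on all tumours and 8 that left out 1 tumour. Their log2 fold changes ran from 1.10 to 1.30 for IL6, 1.45 to 1.91 for LIF, 1.00 to 1.28 for IL1B, 0.44 to 0.56 for IL18 and -0.89 to -0.66 for IL1A. The highest adjusted p among them was 0.0184, for IL1A. IL11, IL32, TNF and CSF1 passed in none of the fits that tested them, and kept their sign. Their values moved with single tumours. IL11 ran from -0.42 (without knockout replicate 4) to -0.048 (without parental replicate 4), and IL32 from -0.31 (without parental replicate 4) to -0.046 (without parental replicate 2). TNF ran from 0.31 (without parental replicate 4) to 0.65 (without parental replicate 3), and CSF1 from 0.12 (without parental replicate 1) to 0.43 (without parental replicate 2). TNF was not tested with a minimum count of 30. The number of changed genes overall ran from 3501 (without knockout replicate 1) to 4902 (no filter on low counts). No pairing by replicate number was seen, as same-numbered tumours had correlations of their deviations of -0.0354, 0.00519, -0.283 and 0.121. Differently numbered tumours had correlations from -0.282 to 0.332, so these few values cannot exclude a weak pairing. With the replicate number as a block, 3871 genes changed and the same 5 cytokines were called. The sign of IL6ST, which had no call, turned (-0.03 with all tumours, 0.0045 with upper-quartile scaling, and -0.16 without knockout replicate 2 to 0.12 without knockout replicate 4). Fibroblast markers held 3 changed genes without parental replicate 2 (1 with all tumours), and endothelial markers 3 without a filter on low counts and 0 with a minimum count of 30. Depth limits TNF and CSF2, where 79 and 29 counts over the parental libraries leave wide intervals.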

Other observations

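Transcripts of the calprotectin subunits S100A8 and S100A9, which myeloid cells and stressed epithelia both make, were the leukocyte markers that passed the threshold. S100A8 rose from 64.2 ± 31.9 to 312 ± 92.3 CPM (SD, n = 4 each; log2 fold change 2.28, SE 0.335, edgeR adjusted p = 0.000461) and S100A9 from 956 ± 191 to 2192 ± 446 CPM (1.20, SE 0.170, adjusted p = 0.000369). Of the 11 leukocyte markers tested, the remaining 9 did not pass. The count of 2 was 4 without parental replicate 4 and 5 without a filter on low counts. With all tumours, 27.0% of all genes tested passed. PTPRC, which marks all leukocytes, was at 4.89 ± 4.42 and 3.66 ± 1.32 CPM, with a log2 fold change of -0.41 (95% interval -1.60 to 0.78, edgeR adjusted p = 0.619).

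Protein-coding neighbours within 200 kilobases of the changed cytokine genes were read as a description, beside the 27.0% of all genes tested that passed. Beside LIF, SEC14L2 (log2 fold change -1.45, edgeR adjusted p = 0.000878) and CCDC157 (-1.11, 0.00187) fell and RNF215 (0.56, 0.0154) rose, while TBC1D10A (-0.10, 0.652), SF3A1 (-0.06, 0.637) and MTFP1 (-0.21, 0.418) did not pass. Beside IL1A and IL1B, SLC20A1 rose (0.50, edgeR adjusted p = 0.0236), and CKAP2L, which lies between SLC20A1 and IL1A, had -0.13 (adjusted p = 0.701). POLR1B (-0.32, edgeR adjusted p = 0.0659) and CHCHD5 (-0.19, 0.210), within that distance of IL1A only, did not pass. Beside IL6, TOMM7 (0.18, 0.127) and FAM126A (-0.20, 0.327) did not pass. Beside IL18, PIH1D2 fell by 1.68 on the log2 scale (edgeR adjusted p = 0.000733), and the other 7 genes tested there had no call.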
